A study of Mus musculus with 4 samples.

Results

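Among the cells of fetal mouse leg muscle, 118 of 36969 cells that met the study's quality limits carried enough contractile transcripts to be called myotube-like. They were chosen cell by cell from the counts. At least 0.5% of a cell's unique molecular identifiers (UMIs, tags that mark single captured transcripts) had to come from *Acta1*, *Ckm*, *Mylpf*, *Tnnc2*, *Tnnt3* and *Myl1* together, with at least 4 of these 6 genes detected. A cell also needed at least 1 UMI of *Ttn* and none of *Pdgfra*, a gene of fibroblast-like cells. The quality limits were 1000 to 6000 detected genes, 1000 to 25000 UMIs and less than 8% mitochondrial UMIs. The study itself reported fewer cells after its filtering than the 36969 kept here, and the reason was not traced. The myotube-like cells numbered 32 and 18 in the wild-type (WT) libraries and 29 and 39 in the knockout (KO) libraries, out of 8515, 8177, 9816 and 10461 kept cells and 41741 deposited cells in all. The levels of these 8 genes are therefore set by the choice of cells and are given as description, as are all comparisons with other cells of the same libraries.

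The study profiled leg muscles of E18.5 fetuses (late gestation, just before birth) by droplet-based single-cell RNA sequencing, with 2 libraries of WT fetuses and 2 of fetuses lacking *SYISL*, a long non-coding RNA that lies within *Synpo2*. Per the study's methods, heterozygous parents were mated and the WT and KO fetuses were littermates, the muscles were digested with trypsin and DNase I, and the suspension was strained. The strain of mouse and the number of fetuses in a library were not given in the sources used here. The question was how loss of *SYISL* alters fetal myogenic cells.

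Skeletal myotubes form when myoblasts leave the cell cycle and fuse, and then build sarcomeres from actin thin filaments, myosin thick filaments and the giant spring protein titin. Troponins and tropomyosins on the thin filament let calcium, released from the sarcoplasmic reticulum, start contraction. Fetal muscle uses embryonic and perinatal myosins and several sarcomeric isoforms that the heart keeps into adult life, and fast and slow fibres are told apart by their own isoforms of most of these proteins. Mature fibres are long syncytia with many nuclei.

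The upstream sequences of 4 genes are shown because these genes form the actin and myosin isoform pairs whose shares are compared between cell classes and genotypes. They are the 250 bases before the RefSeq gene start in build GRCm38.p6, written along the gene's strand. *Acta1*, skeletal alpha-actin, has its window at chr8:123894776-123895025 on the minus strand. The window of *Actc1*, cardiac alpha-actin, is chr2:114052876-114053125 on the minus strand. *Myh3*, embryonic myosin heavy chain, has the plus-strand window chr11:67078050-67078299, and *Myh8*, perinatal myosin heavy chain, the plus-strand window chr11:67276874-67277123. Capitals mark a CArG box (the serum response factor motif) in both actin genes, 73 bases before the start in *Acta1* and 47 in *Actc1*, TATA letters in *Acta1* and *Myh3*, 7 and 29 bases before it, a MEF2 site in *Myh8*, 99 bases before it, and 1 E-box each in the myosin genes, 191 bases before the start in *Myh3* and 32 in *Myh8*. E-boxes of the actin windows are left in lower case. GENCODE starts *Actc1* further upstream, so in that annotation its window lies inside the gene.
Acta1: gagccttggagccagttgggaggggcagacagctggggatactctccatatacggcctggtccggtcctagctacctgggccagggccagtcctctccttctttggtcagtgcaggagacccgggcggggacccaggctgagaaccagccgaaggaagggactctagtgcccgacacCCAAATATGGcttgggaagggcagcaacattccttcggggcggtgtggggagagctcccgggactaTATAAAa
Actc1: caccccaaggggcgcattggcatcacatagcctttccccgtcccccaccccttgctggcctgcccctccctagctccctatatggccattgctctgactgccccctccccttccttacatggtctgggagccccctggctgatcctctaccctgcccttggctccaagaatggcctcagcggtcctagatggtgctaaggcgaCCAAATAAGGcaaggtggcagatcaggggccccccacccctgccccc
Myh3: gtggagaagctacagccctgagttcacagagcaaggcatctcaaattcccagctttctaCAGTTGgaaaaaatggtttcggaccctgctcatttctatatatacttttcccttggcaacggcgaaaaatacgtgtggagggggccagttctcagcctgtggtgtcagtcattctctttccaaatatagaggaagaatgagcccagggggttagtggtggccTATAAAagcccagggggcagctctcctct
Myh8: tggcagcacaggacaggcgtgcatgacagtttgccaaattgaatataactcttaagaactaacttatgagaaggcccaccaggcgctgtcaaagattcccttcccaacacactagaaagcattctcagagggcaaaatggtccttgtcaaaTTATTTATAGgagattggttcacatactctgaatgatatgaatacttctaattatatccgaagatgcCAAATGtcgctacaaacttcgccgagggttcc

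The motifs were searched on both strands as exact letters: the E-box as CANNTG, the TATA box as TATAAA, and the CArG box and the MEF2 site by their usual consensus. TATA letters read on the other strand overlap the MEF2 site of *Myh8*. Of all 32851 RefSeq promoter windows, 66.2% held an E-box, 1.47% a CArG box, 2.92% a MEF2 site and 12.4% a TATA box. Windows were found for 5 of the 6 summed contractile genes. All 5 held an E-box, *Acta1* alone a CArG box, and *Acta1* and *Myl1* TATA letters. These matches are a description of the letters only.

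The libraries differed in ways that touch the results. Summed over the myotube-like cells, a library gave between 254404 and 491166 UMIs, 1389840 in all. The myotube-like cells of WT replicate 1 were shallow, with a median of 5930 UMIs against 14378 in WT replicate 2, 12818 in KO replicate 1 and 10530 in KO replicate 2. KO replicate 2 alone held *Xist*, at 690 CPM (the usual counts-per-million scale, a gene's UMIs relative to the summed UMIs of a library's cells), and had no UMI of 4 Y-linked genes, whereas the other 3 libraries showed the opposite, so sex and replicate cannot be told apart there. Between 21 and 41 barcodes were shared by any pair of libraries, and none of them was myotube-like in both. *SYISL* was not named among the features, so the deletion itself was not checked. P-values measure the spread between these libraries only.

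The myotube-like cells covered a wide range of contractile content. The summed share of the 6 genes ran from 0.503% to 29.7% of a cell's UMIs with a median of 1.98%. By library the median was 5.05%, 1.10%, 1.26% and 3.08% in WT replicates 1 and 2 and KO replicates 1 and 2, the order used for all sets of 4 values. In each library the highest cell lay between 27.8% and 29.7%. Pooled, 35 cells lay between 0.5% and 1%, 44 between 1% and 5%, and 39 at 5% or more, of which 16, 4, 5 and 14 came from the respective libraries. Just inside the limit, 7 cells lay between 0.5% and 0.6%. Just outside, 24 cells that met the other conditions lay between 0.4% and 0.5%, so the limit cut through a continuum. A further 58 cells lacked only the *Ttn* UMI, 91 failed only by a *Pdgfra* UMI, and 107 met the gene conditions but not the quality limits, 48 of them for having more than 25000 UMIs. In fibroblasts of the same libraries (cells with at least 2 *Pdgfra* UMIs and none of 8 myogenic markers), the same 6 genes made up 0.0265% to 0.0545% of UMIs. In *Pax7* progenitors outside the cell cycle the range was 0.0196% to 0.0282%, and how much of either was free RNA was not tested.

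**Figure D1:**
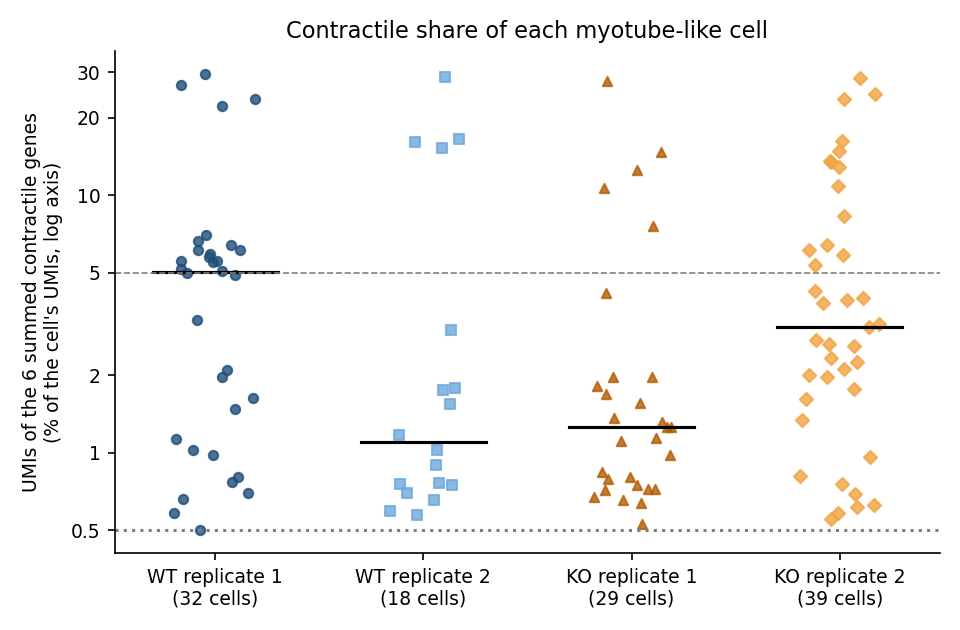
Share of each cell's UMIs from the 6 summed contractile genes (percent, log axis), with 1 point per myotube-like cell, grouped by library. Black bars are library medians, the dotted line is the 0.5% limit and the dashed line is 5%; WT replicate 1 has a median of 5.05% and the other 3 medians lie between 1.10% and 3.08%.

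To see what these cells carry beyond the chosen genes, they were compared with their nearest neighbours, 765 myoblasts that had at least 2 UMIs of *Myog*, no *Pdgfra* and no UMI of 7 cycling genes. Reads come from transcript 3′ ends, so no correction for length was made and different genes are not ranked by level. Of 8511 genes at 10 CPM or more in either class, 930 (10.9%) were higher in all 4 libraries of the myotube-like cells than in all 4 of the myoblasts and 1530 (18.0%) were lower. The median log2 ratio over these genes was -0.12. Counts of genes above or below myoblasts in the lists that follow stand beside these shares. The mean of library medians was 10914 UMIs in the myotube-like cells and 10701 in the myoblasts, but within WT replicate 1 the medians were 5930 and 11207, and within WT replicate 2 they were 14378 and 11544. Since the choice of cells used these same values, no test was made.

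The genes furthest above myoblasts were not only sarcomeric. *Itgb1bp2* (melusin, a muscle chaperone that binds integrin) stood at 289, 126, 156 and 501 CPM, a mean of 268 against 3.65 in myoblasts, a ratio of 73.4. *Sln*, the sarcolipin that inhibits the calcium pump, stood at 1532, 908, 1190 and 1863 CPM against a myoblast mean of 25.3. Every library of the myotube-like cells was above every myoblast library for both genes. *Tceal7*, a small nuclear protein expressed in muscle, stood at 589, 668, 515 and 812 CPM against 13, and *Trdn*, the triadin of the calcium release complex, at 98.7, 55.0, 97.1 and 254 against 2.35. The 15 genes with the greatest ratios also held *Ckm*, *Tnnc2*, *Tnnt3* and *Mylpf*, which the choice of cells had used, and *Myoz2*, *Csrp3*, *Eno3*, *Tnnc1*, *Tcap*, *Smpx* and *Mlf1*. Of their 11 promoter windows from 10 genes, 9 held an E-box (81.8%, against 66.2% of all windows) and 1, that of *Myoz2*, a MEF2 site.

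Genes furthest below myoblasts were led by *Chn2*, *Dll1* and *Zc3h12c*. *Dll1*, a Notch ligand of committed myoblasts, stood at 11, 11.8, 21.6 and 6.11 CPM against a myoblast mean of 73.1, a log2 ratio of -2.44. *Mdk*, the secreted growth factor midkine, had a mean of 55.4 CPM against 200 in myoblasts, and *Rgs16*, a regulator of G protein signalling, 45.1 against 163. *Myod1*, the determination factor, stood at 21.9, 51.1, 64.7 and 57.0 CPM against 176. All 4 libraries were below all myoblast libraries for each of these genes.

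**Figure D2:**
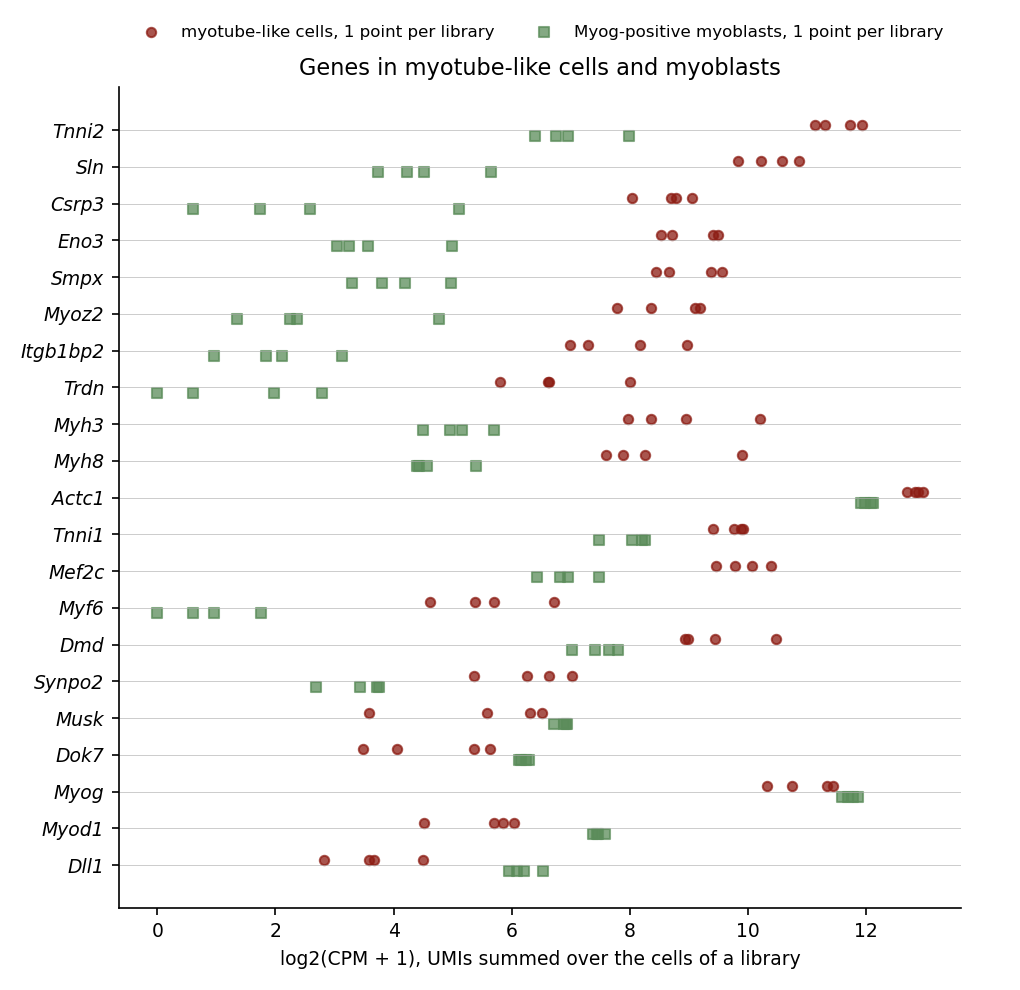
Levels of 21 genes in myotube-like cells (circles) and *Myog*-positive myoblasts (squares), as log2(CPM + 1) with 1 point per library. From *Tnni2* down to *Synpo2* every circle lies to the right of every square, and from *Musk* to *Dll1* every circle lies to the left.

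Thin filament genes outside the rule were higher in fast, slow and cardiac-type forms. *Tnni2*, fast troponin I (chr7:142441808-142444410, GRCm38, plus strand), stood at 3894, 2241, 2538 and 3376 CPM, against a myoblast mean of 141. It was detected in 96.6% of the myotube-like cells and 20.1% of fibroblasts, and in 84.7% and 6.22% after every cell was thinned to 2000 UMIs, at mean library medians of 10914 and 10913 UMIs before thinning. *Tnni1*, slow troponin I (chr1:135779434-135810989, plus strand), stood at 940, 873, 677 and 969 CPM against 259. *Tnnt2*, the cardiac-type troponin T of early muscle, stood at 1459, 1694, 1532 and 1478 CPM and was above all myoblast libraries (702 to 952). *Tpm1* (4029, 2803, 2738 and 4593 CPM) and *Tpm2* (2888, 2736, 2371 and 3420 CPM), the tropomyosins, were also above all myoblast libraries. *Actc1* was high in both classes, at 6628, 7952, 7283 and 7529 CPM here against 3871 to 4431 in myoblasts. All 6 measured genes of the cardiac-type and early list were above myoblasts.

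Of 32 measured genes of sarcomere structure and assembly, 30 were above myoblasts in all libraries and none was below, with a median log2 ratio of 2.67. The exceptions were *Myom1*, an M-band protein, and *Flnc*, filamin C, whose ranges overlapped. *Csrp3*, a Z-disc LIM protein, stood at 413, 531, 262 and 440 CPM against a myoblast mean of 10.3 (0.516 to 33.3, highest in WT replicate 2). *Smpx*, a small stretch-responsive protein, stood at 753, 405, 348 and 660 CPM against 17.3. *Neb*, the nebulin ruler of the thin filament, stood at 636, 1053, 753 and 1254 CPM, above the 365 to 478 of myoblasts. *Actn2*, the Z-disc alpha-actinin, was found in 78.0% of the cells against 2.24% of fibroblasts, and in 41.5% and 0.408% after thinning. The M-band gene *Myom2* (76.8, 78.6, 48.6 and 116 CPM against at most 4.76) and the titin cap *Tcap* (54.8, 86.5, 67.4 and 79.4 CPM against at most 2.38) were low in myoblasts. Of the 12 myotube markers 11 were above myoblasts, but 7 of these are genes of the rule, for which this was fixed by the choice of cells. Of the markers outside the rule, *Tnni2*, *Actn2*, *Atp2a1* and *Cacna1s* were above and *Ryr1* overlapped.

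Myosin heavy chains were those of development. *Myh3* stood at 494, 326, 251 and 1177 CPM, against 21.7 to 51.1 in myoblasts, and *Myh8* at 234, 193, 305 and 959 CPM, against 20.1 to 41.0. KO replicate 2 was the highest library for both. Neither was found in 19 of the 118 cells. Adult fast isoforms were near absent. *Myh2* and *Myh4* had no UMI in 1389840, which allows up to 2.16 CPM by counting error, and *Myh1* had 7 UMIs in 4 cells. *Myh7*, the slow myosin, had 15 UMIs in 2 cells. In WT replicate 1, 1 cell held 66 of the 135 *Myh3* UMIs, as well as all 11 *Myh7* UMIs and all 134 UMIs of *S100a9*, a neutrophil gene.

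Slow fibre genes other than the myosin were present too, and some came from few cells. Of 10 measured slow genes 6 were above myoblasts, and of 6 fast genes 5, beside 10.9% over all genes. *Tnnc1*, slow and cardiac troponin C, stood at 1620, 535, 507 and 867 CPM, and *Myoz2*, a Z-disc calsarcin of slow fibres, at 552, 326, 218 and 580 CPM. In WT replicate 2, 1 cell with 13248 UMIs and a contractile share of 16.1% held all 106 UMIs of *Myl2*, all 128 of *Myl3* and all 4 of *Myh7*, together with 112 of 136 UMIs of *Tnnc1*. *Myl2* and *Myl3*, the ventricular and slow light chains, were found in 4 and 7 of the 118 cells in all. *Pvalb*, the calcium buffer parvalbumin of fast fibres, was uneven in the same way, at 110, 7.86, 10.8 and 44.8 CPM in 15 cells.

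Excitation-contraction coupling genes were mostly above myoblasts, 12 of 16 measured with none below and a median log2 ratio of 1.90. *Cacna1s*, the voltage sensor of the T-tubule, was low, at 47.5, 7.86, 8.09 and 30.5 CPM against at most 0.469 in myoblasts. *Cacng1*, its gamma subunit, stood at 205, 161, 178 and 271 CPM against 16.5 to 29.7, and *Casq2*, the calcium store protein, at 139, 118, 111 and 379 CPM against 6.27 to 18.4. *Jph2*, which joins the store to the T-tubule, stood at 51.2, 43.2, 80.9 and 73.3 CPM against 3.34 to 7.74. *Ryr1*, the calcium release channel, did not separate, at 87.7, 114, 111 and 153 CPM against 93.8 to 117. *Ryr3*, *Asph* and *Hrc* overlapped as well. *Clcn1*, the chloride channel of mature fibres, had no UMI.

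Neuromuscular junction genes lay on both sides. Of 8 measured genes 2 were above and 2 below, beside 10.9% and 18.0% over all genes. *Rapsn*, which clusters the acetylcholine receptor, stood at 161, 66.8, 121 and 124 CPM against 32.6 to 40.4, and the fetal gamma subunit *Chrng* at 121, 39.3, 53.9 and 77.4 CPM against 23.4 to 33.3. *Musk*, the receptor kinase that starts clustering, was lower, at 11, 90.4, 78.2 and 46.8 CPM against 104 to 121, as was its activator *Dok7*, at 40.2, 15.7, 48.6 and 10.2 CPM against 68.5 to 77.4. The adult epsilon subunit *Chrne* had no UMI.

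Transcription factors lay on both sides of the myoblast level. Of 18 measured, 4 were above, 5 below and 9 overlapped, beside 10.9% above and 18.0% below over all genes. *Myf6* (Mrf4, the late regulator of the MyoD family) stood at 51.2, 23.6, 40.5 and 104 CPM against at most 2.38. *Mef2c*, which drives sarcomeric genes, stood at 702, 1073, 874 and 1340 CPM against 85.2 to 177, and was found in 112 of 118 cells. *Tead4* and *Maf* were the other 2 above. *Myog*, the differentiation factor, was lower, at 1707, 2771, 2589 and 1283 CPM against 3070 to 3719, a difference that the choice of myoblasts by *Myog* helps to fix. It was still found in 102 of 118 cells. *Myod1*, *Nfix*, *Prox1* and *Sox6* were lower too. *Pax7*, the progenitor factor, was found in 6 cells. Cycling genes cannot be compared, since the myoblasts were chosen to lack them.

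The fusion proteins' own genes overlapped the myoblast range. *Mymk* (myomaker, the membrane protein needed for fusion) stood at 333, 208, 189 and 171 CPM against 155 to 221, and *Mymx* (myomixer) at 567, 963, 831 and 391 CPM against 589 to 678. Of 10 measured fusion and adhesion genes, 4 were above, *Jam2*, *Tmem182*, *Itga7* and *Npnt*, and none was below, with a median log2 ratio of 0.85. Of 11 measured dystrophin complex genes 7 were above, 1 was below and 3 overlapped. Over all genes 10.9% were above and 18.0% below. *Dmd*, dystrophin, stood at 508, 696, 491 and 1417 CPM against 130 to 221, and the delta-sarcoglycan gene *Sgcd* at 146, 94.3, 113 and 285 CPM against 7.04 to 14.3. *Dag1*, which encodes dystroglycan, was the 1 lower gene, at 238, 216, 286 and 202 CPM against 352 to 405.

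Muscle forms of metabolic enzymes stood out against their general forms. *Eno3*, muscle enolase, stood at 720, 421, 370 and 680 CPM against 7.23 to 30.9, whereas *Eno1*, the general enolase, stood at 252, 322, 270 and 344 CPM against 197 to 237. *Pgam2*, muscle phosphoglycerate mutase, stood at 534, 342, 310 and 523 CPM against 4.65 to 30.9. *Pgk1*, a general glycolytic enzyme, was lower, at 252, 197, 294 and 250 CPM against 341 to 363. Over the glycolysis list, 9 of 14 measured genes were above and 1 was below, beside 10.9% and 18.0% over all genes. The muscle cytochrome oxidase subunit *Cox6a2* stood at 219, 236, 200 and 373 CPM against 7.23 to 20.8, while its general counterpart *Cox6a1* was lower, at 143, 157, 135 and 126 CPM against 173 to 192. *Ak1*, muscle adenylate kinase, stood at 146, 161, 154 and 159 CPM against 8.78 to 27.9. *Mb*, myoglobin, had 4 UMIs in 2 cells. Of 8 measured mitochondrial and fatty acid genes 6 were above and 1 below, and of 5 measured creatine, purine and oxygen genes 3 were above and none below.

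Among the signalling genes that the study discusses, 1 of 12 measured was above myoblasts and 3 were below, near the shares over all genes (10.9% and 18.0%). *Igf2*, a fetal growth factor, stood at 684, 641, 488 and 790 CPM against 313 to 378. Its signalling receptor *Igf1r* was lower, at 289, 440, 461 and 301 CPM against 464 to 531, and the myostatin receptor genes *Tgfbr1* and *Acvr2a* were lower as well. *Mstn*, myostatin itself, had 15 UMIs in 13 cells. *Synpo2*, the host gene of *SYISL*, which encodes a Z-disc and actin-binding protein and lies at chr3:123076519-123236149 (GRCm38, minus strand), stood at 40.2, 98.3, 75.5 and 128 CPM against 5.43 to 12.5 in myoblasts.

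Genes of other cell types were present at levels that differed among libraries. Of the fibroblast markers, *Pdgfra* was at 0 by the rule. *Col1a1* stood at 1144, 377, 518 and 918 CPM, above the 117 to 240 of myoblasts. The fibroblast list summed to 3309, 1183, 1761 and 2480 CPM, against 403 to 769 in myoblasts and 25042 to 28808 in fibroblasts. Macrophage markers summed to 457, 3.93, 0 and 136 CPM, and 50 of 61 *C1qa* UMIs of WT replicate 1 lay in 1 cell. Chondrocyte markers summed to 493 CPM in KO replicate 2 and at most 11 in the others, and mast cell and neutrophil markers to 717 CPM in WT replicate 1 and at most 8.14 elsewhere. In their highest libraries, myoblasts, *Pax7* progenitors and fibroblasts reached 266, 288 and 545 CPM of the chondrocyte list. For the mast cell and neutrophil list these were 124, 519 and 60.9 CPM. Endothelial markers summed to at most 18.3 CPM with *Tie1* at 0, tenocyte markers to at most 175 CPM and red cell markers to at most 11 CPM. Of the smooth muscle and pericyte list, *Acta2* was above myoblasts, at 1546, 1376, 2045 and 1521 CPM, and *Myh11*, the defining smooth muscle myosin, was at 0. Of glial markers, *Erbb3*, a neuregulin receptor, stood at 76.8, 98.3, 105 and 83.5 CPM in 60 of 118 cells, above the 19.6 to 36.9 of myoblasts. The part of other cells in the results was not tested. At least 3 UMIs of 7 marker genes of other cells were found in 19, 7, 12 and 20 myotube-like cells. The highest cell of each library held 228, 110, 389 and 364 such UMIs. These cells held 1, 0, 0 and 0 UMIs of *Myog*, and are called myotube-like by the rule only. The doublet caller Scrublet marked none of the 118 cells, and 168, 135, 251 and 244 kept cells in all.

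The cells richest in contractile transcripts differed from the rest in more than the summed genes. The 39 cells at 5% or more had a median of 5539 UMIs and 1536 genes, against 13110 UMIs and 3462 genes for the 44 cells at 1% to 5% and 13833 UMIs and 3604 genes for the 35 cells under 1%. Their median mitochondrial share was 0.956%, against 3.65% and 3.86%. At 5% or more, *Tpm1* averaged 14845 CPM over the libraries, against 1318 and 553 in the middle and lower ranges. *Sln* averaged 5301 CPM against 733 and 174, *Eno3* 2172 against 242 and 79.3, *Csrp3* 1969 against 259 and 7.84, *Tcap* 412 against 10.2 and 5.91, and *Myf6* 202 against 34.5 and 2.57. Over libraries at 5% or more, *Csrp3* ran from 587 to 4663 CPM, *Tcap* from 159 to 765, *Sln* from 3792 to 7387 and *Tpm1* from 11401 to 19236, and 2 of these libraries gave only 4 and 5 cells. The cells are ranked here by their contractile content, so the values are descriptive.

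Other genes went the opposite way along the same range. *Myog* averaged 3058 CPM under 1%, 1702 at 1% to 5% and 831 at 5% or more. *Mymx* averaged 907, 637 and 254 CPM, the adhesion gene *Jam3* 697, 516 and 99.2, *Igf1r* 498, 375 and 67.9, and the cell cycle exit genes *Cdkn1c* 10130, 7160 and 2775 and *Rb1* 522, 313 and 65.5. The nuclear RNA *Malat1* averaged 8359, 11170 and 3631 CPM. Libraries differed widely at 5% or more, where *Malat1* ran from 72.9 to 8082 CPM, *Mymx* from 0 to 661, *Jam3* from 0 to 294, *Igf1r* from 0 to 165, *Myog* from 364 to 1541 and *Cdkn1c* from 1093 to 4905. A higher share of some genes lowers the CPM of all others, and the summed contractile share itself had a median of 10.9% in the top range. *Ttn* averaged 2093, 2863 and 1722 CPM, with 364 to 3951 over the libraries of the top range, and *Mef2c* 768, 1172 and 1113. Across the 118 cells the summed share had a Spearman rho of 0.93 with fast fibre genes outside the rule, 0.64 with sarcomere structure genes, 0.67 with glycolytic genes and -0.50 with myogenic transcription factors. Within single libraries these ran from 0.85 to 0.96, 0.33 to 0.76, 0.43 to 0.75 and -0.74 to -0.26. These cells share libraries and differ in depth, and the share itself had a rho of -0.45 with the UMI count.

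The top range was divided at 1% mitochondrial UMIs, a limit chosen after the values were seen. In 20 cells (5, 4, 3 and 8 by library) mitochondrial UMIs were under 1%, with a median of 0.0617% and a lowest value of 0, beside a median contractile share of 16.4%. In 19 cells (11, 0, 2 and 6) they were at 1% or more, with a median of 2.49% and a median contractile share of 6.10%. Below 5% contractile share, 1 cell had under 1% mitochondrial UMIs and 78 cells had more. The 20 cells had a median of 1 *Myog* UMI, the 19 cells 8, and the 78 cells with less contractile and more mitochondrial RNA 34. These are raw counts at median depths of 5992, 5022 and 13694 UMIs, so depth enters the comparison. Over the whole top range, not divided by mitochondrial share, nuclear-encoded *Slc25a4*, the muscle ADP/ATP carrier of mitochondria, averaged 2826 CPM against 562 and 598 below. WT replicate 1 gave 11 of the 19 cells, and their part in its low median depth was not tested.

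**Figure D3:**
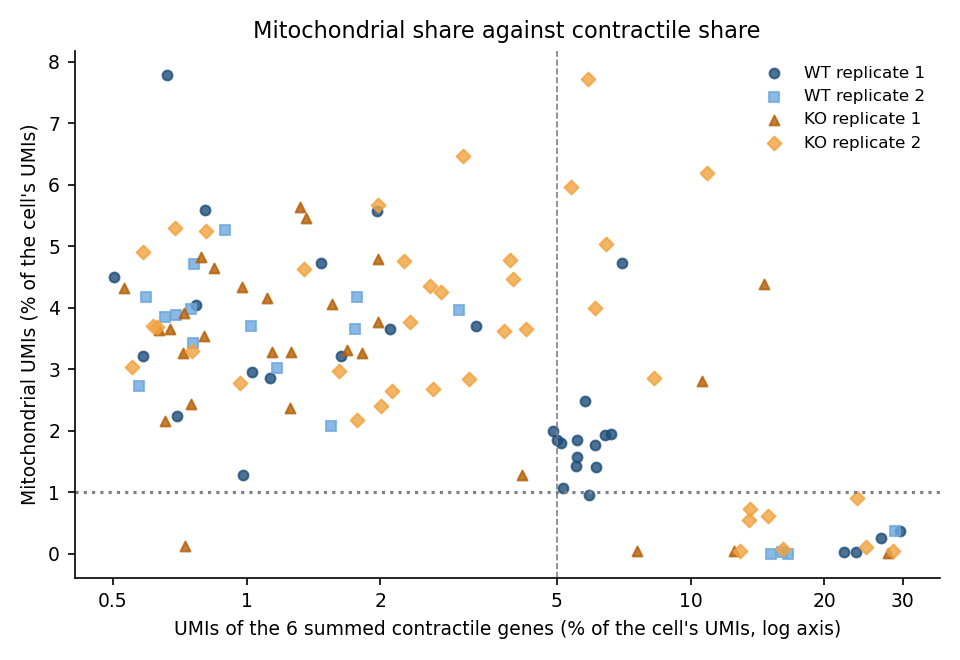
Mitochondrial share against contractile share of each of the 118 myotube-like cells (percent of the cell's UMIs, log x axis), marked by library. The dashed line is at 5% and the dotted line at 1%; 20 cells lie in the lower right corner and 1 cell in the lower left.

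Isoform pairs were compared as shares. Each share is the percentage of UMIs from 1 gene of a pair and compares 3′ tags, not transcripts per length. *Tnni1* made up 19.4%, 28.0%, 21.1% and 22.3% of troponin I UMIs, and 68.1%, 53.8%, 71.3% and 71.1% in myoblasts. *Actc1* made up 30.7%, 47.4%, 42.0% and 35.3% of its sum with *Acta1*, and 92.0%, 84.8%, 91.2% and 91.9% in myoblasts, a gap that is fixed in part since *Acta1* helped to choose the cells. *Myh8* made up 32.2%, 37.1%, 54.9% and 44.9% of its sum with *Myh3*, and 51.2%, 44.5%, 40.7% and 36.6% in myoblasts, so this pair did not separate the classes.

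Both troponin I genes and both actins were detected in most myotube-like cells, where 1 UMI counts as detected and free RNA was not separated. Both troponin I genes were found in 101 of 118 cells, *Tnni2* alone in 13 and *Tnni1* alone in 4. The slow gene held more than 50% of the UMIs in 22 of 116 cells with at least 3 UMIs of the pair. Both sarcomeric actins were found in 117 cells, and *Actc1* exceeded *Acta1* in 58 of 118. Both myosins were found in 63 cells, *Myh8* alone in 23, *Myh3* alone in 13 and neither in 19. Among fibroblasts, at a like median depth, 20.1% held a UMI of *Tnni2*, 2.87% of *Tnni1*, 36.6% of *Acta1*, 18.6% of *Actc1*, 1.48% of *Myh3* and 2.30% of *Myh8*. The 20 cells with under 1% mitochondrial UMIs and 5% or more contractile UMIs had a *Tnni1* share of 8.25% and an *Actc1* share of 19.6%. In the 78 cells with less contractile and more mitochondrial RNA these were 34.8% and 57.2%.

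**Figure D4:**
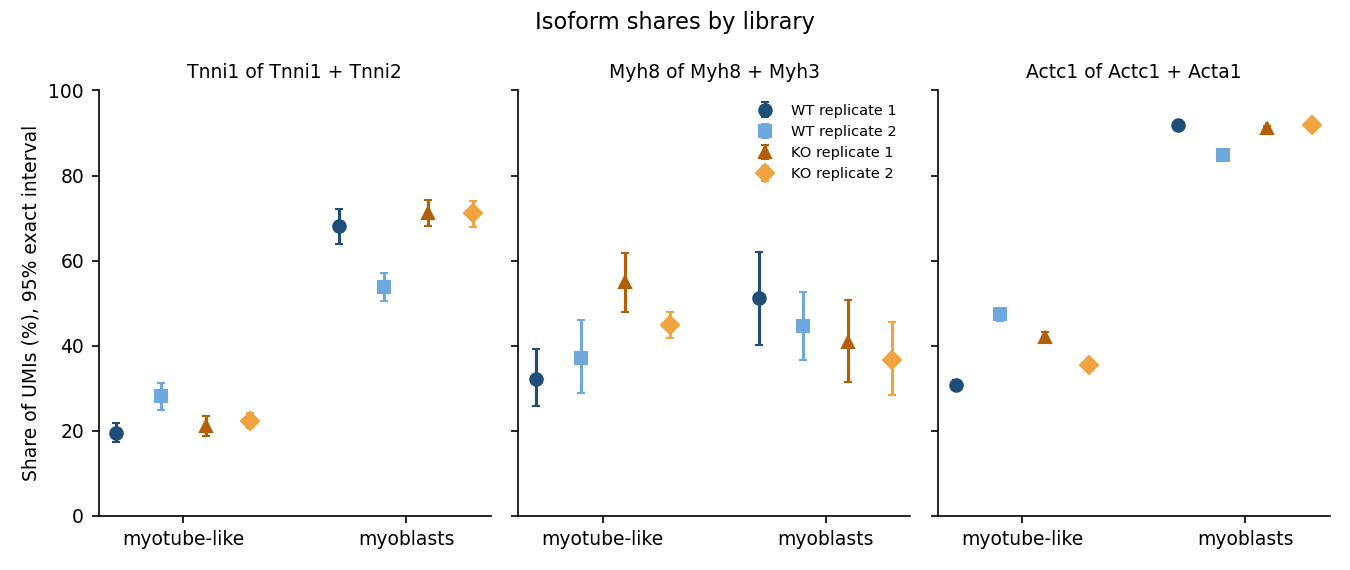
Share of UMIs (percent) of *Tnni1*, *Myh8* and *Actc1* within their isoform pairs in myotube-like cells and myoblasts, 1 point per library with exact 95% binomial intervals that cover counting error only. In the outer panels the myotube-like cells lie below the myoblasts in all 4 libraries; in the middle panel the 2 classes overlap.

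To ask whether loss of *SYISL* changed how many such cells there were, their share was compared between genotypes. Of all kept cells they made up 0.376% (exact Clopper-Pearson 95% interval 0.257% to 0.530%), 0.220% (0.131% to 0.348%), 0.295% (0.198% to 0.424%) and 0.373% (0.265% to 0.509%). The WT mean was 0.298% ± 0.110 (SD, n = 2) and the KO mean 0.334% ± 0.0547 (SD, n = 2). The KO values lay within the span of the WT values, and an exact two-sided permutation test gave p = 1. With 2 libraries per genotype the exact permutation test cannot go below p = 0.333. Of 6488 myogenic cells (no *Pdgfra* and at least 2 of 8 myogenic markers, plus the myotube-like cells) they made up 2.23%, 1.42%, 1.5% and 2.11%, with a WT mean of 1.83% ± 0.571 (SD, n = 2) and a KO mean of 1.80% ± 0.433 (SD, n = 2), and the exact permutation test again gave p = 1.

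Isoform shares were compared in the same way. The *Tnni1* share was 23.7% ± 6.07 in WT and 21.7% ± 0.883 in KO (SD, n = 2 each; exact two-sided permutation p = 1). The *Actc1* share was 39.1% ± 11.8 in WT and 38.7% ± 4.72 in KO (SD, n = 2 each; exact permutation p = 1). Its partner *Acta1* is a gene of the rule, so the choice of cells bounds this share in both genotypes. The *Myh8* share was 34.6% ± 3.51 in WT and 49.9% ± 7.04 in KO (SD, n = 2 each), with both KO libraries above both WT libraries. Its exact permutation p of 0.333 is the smallest the design allows. The difference of 15.2 percentage points turned to -2.78 when the cells with at least 3 UMIs of other cell types' markers were left out, and to -1.47 when cells rather than UMIs were averaged. Under the looser cell filter it was 1.55 points, from 32.9% in WT to 34.5% in KO, with the libraries overlapping at 30.7% and 35.2% in WT and 30.7% and 38.3% in KO.

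No single gene passed the threshold between genotypes. Sums of UMIs per library were tested with edgeR's quasi-likelihood test, and 0 of 4725 genes (0%) reached an adjusted p below 0.05. At an unadjusted p below 0.05 there were 80 genes higher and 33 lower in KO, and DESeq2 called none, with 16 higher and 10 lower at that level. The median log2 fold change over all tested genes was 0.0025. Both KO libraries were above both WT libraries for 637 genes (13.5%) and below for 681 (14.4%). The lowest adjusted p of edgeR was 0.999955, so every gene below is given as a value that did not pass.

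Of the 5 genes nearest to a call on the KO side, some came from few cells. *Col11a1*, a fibrillar collagen of cartilage and tendon, stood at 18.3 and 15.7 CPM in WT and 89.0 and 147 in KO, a log2 fold change of 2.78 (SE 0.48), and was found in 4, 1, 2 and 6 cells. *Hist1h1b*, a histone of dividing cells, stood at 3.66 and 3.93 against 113 and 32.6 CPM, in 1, 1, 3 and 5 cells. *Lrch1* stood at 65.8 and 94.3 against 170 and 236 CPM, in 8, 12, 19 and 25 cells, a log2 fold change of 1.36 (SE 0.32). *Gm45194* and *Gpc6*, a glypican, completed the 5. On the WT side were *S100a6*, a calcium-binding protein (640 and 181 against 97.1 and 69.2 CPM), *Slc16a10*, an amino acid transporter (84.1 and 62.9 against 21.6 and 26.5), *Arhgdia* (76.8 and 74.7 against 27.0 and 30.5), *Apoo* (91.4 and 98.3 against 43.2 and 34.6) and the transcription factor gene *Cebpd* (165 and 267 against 102 and 99.8). The log2 fold change of *S100a6*, -2.34 (SE 0.61), became 0.88 without the cells that held other cell types' markers and -1.06 without WT replicate 1. It was called when WT replicate 2 was left out, at -3.00 with an adjusted edgeR p of 0.00914, and over its alternatives the adjusted p ran from 1.04e-09 to 0.999943.

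**Figure D5:**
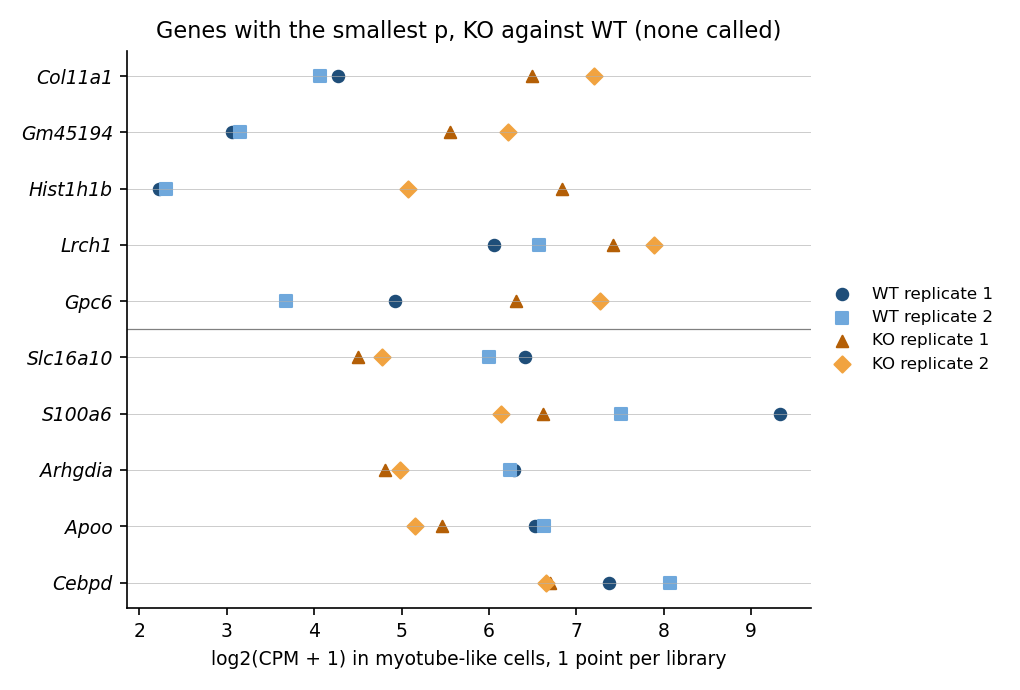
Levels in myotube-like cells of 10 genes, the 5 with the smallest unadjusted edgeR p in each direction, as log2(CPM + 1) with 1 point per library. They were taken from genes at 10 CPM or more on average whose WT and KO libraries do not overlap. The upper 5 were higher and the lower 5 lower in both KO libraries; none passed the adjusted threshold.

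Contractile genes lay on both sides of no change between genotypes. Of 28 tested sarcomere genes, 2 were above and 2 below in both KO libraries, with a median log2 fold change of 0.13. The 4 fast genes had a median of 0.03 and the 7 slow genes -0.13. The 7 tested genes of the rule had a median of 0.02, but the choice of cells bounds their levels in both genotypes. In excitation-contraction coupling 3 of 15 were above and 1 below, with a median of 0.32, and in the dystrophin complex 2 of 10 were above and 2 below, with a median of 0.45. Of 8 fusion genes none was above and 2 were below (median -0.25), of 14 transcription factors 3 were above and none below (0.30), of 8 junction genes none was above and 1 below (0.12), and of 10 glycolytic genes 2 were above and none below (0.07). The early response list had 3 of 9 below (0.11), the signalling list 1 above and 1 below of 8 (0.12), and the imprinted list none of 8 either way. Of 3 tested cell cycle genes 2 were above and none below (median 1.33). In KO replicate 1, 1 cell with a contractile share of 0.655% held 78 UMIs of the 7 cycling genes, and its part in these values was not tested. Of 2 tested myosin heavy chains 1 was above, of 4 creatine, purine and oxygen genes 1, and of 6 cell cycle exit genes 2, with none below. Of 6 tested mitochondrial and fatty acid genes 2 were below, of 6 progenitor and Notch genes 2, and of 6 cardiac-type and early genes 1, with none above. These counts stand beside 13.5% above and 14.4% below over all tested genes, and edgeR called no gene of any list.

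A few genes of these lists had an unadjusted p under 0.05, with an adjusted edgeR p of 0.999955 for each. *Myh8* had a log2 fold change of 1.57 (SE 0.53), from 234 and 193 CPM in WT to 305 and 959 in KO. It rested on KO replicate 2, without which the value was 0.51. Of the fits that left out 1 library, it was called only without KO replicate 1, at 2.18 with an adjusted edgeR p of 0.0253. Over all its alternatives the adjusted p ran from 3.70e-05 to 0.999943. *Srl*, the calcium store protein sarcalumenin, stood at 139 and 145 against 210 and 271 CPM (0.77, SE 0.27). *Ryr3* stood at 51.2 and 11.8 against 56.6 and 393 CPM, and its log2 fold change of 2.82 was 0.81 without KO replicate 2. *Pfkm*, muscle phosphofructokinase, stood at 25.6 and 19.7 against 40.5 and 87.5 CPM. *Tpm3*, slow tropomyosin, stood at 113 and 432 against 99.8 and 95.7 CPM, and its -1.44 was -0.26 without WT replicate 2. *Atf3*, a stress-induced factor, stood at 333 and 346 against 194 and 185 CPM (-0.83, SE 0.23). *Pcna*, the sliding clamp of DNA replication, stood at 25.6 and 11.8 against 40.5 and 55.0 CPM (1.33, SE 0.55), and ran from 0.86 without WT replicate 2 to 2.06 without WT replicate 1. Outside this group, with an unadjusted edgeR p above 0.05, *Synpo2* had a log2 fold change of 0.60 (SE 0.48). *Myh3*, also above 0.05, had 0.81 (SE 0.66), which turned to -0.72 without KO replicate 2.

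Whether the genotype acted differently on the myotube-like cells than on myoblasts was tested directly, with library as a block. No gene of 9148 (0%) reached an adjusted edgeR p below 0.05. At an unadjusted p below 0.05, 216 genes had a more positive and 99 a more negative difference, and DESeq2 called none, with 44 and 17. Nearest to a call were *Cald1*, a caldesmon that binds actin (1.67, SE 0.34, log2 difference of the fold changes), *Gpc6* (2.85), *Ppp1r9a* (1.74), *Lrch1* (1.55) and *Gxylt1*, which had no UMI in the WT myotube-like cells. On the other side were *Myl3*, whose UMIs came almost all from 1 cell of WT replicate 2, *S100a6* (-2.18), *Skap2* (-1.48), *Cebpd* (-1.47) and *Atf3* (-1.01).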

How the data were processed

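Leg muscles of 2 WT and 2 KO libraries were profiled with the Chromium Single Cell 3′ v3 kit. The authors aligned reads to mm10 with Cell Ranger 7.2.0 and deposited the matrices as raw counts of UMIs for each gene in each cell, with no normalisation. Whether intronic reads were counted was not given in the sources used here, so unspliced transcripts may be included. No column of other samples was used (0).

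Cells were filtered with the study's limits and chosen by the rule given above. Members, gene lists and tests were chosen with earlier results of these data known. Counts were summed over the cells of a library and divided by the library's total to give CPM, and log2 ratios between cell classes used a pseudocount of 1 CPM. Symbols used by more than 1 feature, 78 in all and *Aldoa* among them, were left out of the gene lists. Sums were tested with edgeR 4.0.16 (R 4.3.3, limma 3.58.1) with TMM factors, filterByExpr by genotype, the quasi-likelihood test and Benjamini-Hochberg adjustment over all genes tested at 0.05, without a replicate block in the test of KO against WT. The test of a difference between cell classes had library as a block. DESeq2 1.42.0 was an alternative, as were other contractile limits of 0.25% and 1%, a looser cell filter (500 to 7500 genes, at least 500 UMIs, under 15% mitochondrial UMIs), removal of cells marked by Scrublet (scanpy 1.11.5), removal of cells with at least 3 UMIs of 7 marker genes of other cells, thinning to 2000 UMIs, other filters on low counts, and leaving out each library. No doublet removal was part of the main setting. Shares were compared by exact two-sided permutation over the 6 arrangements of libraries (Python 3.11.15, scipy 1.17.1), and their intervals are exact Clopper-Pearson 95% intervals that cover counting error only.

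Genes named were those of the lists, the 15 with the highest and lowest ratio to myoblasts among genes at 50 CPM or more in the higher class in all 4 libraries with no overlap, and, between genotypes, genes past the threshold at 10 CPM or more on average with no overlap of libraries, or the 5 of smallest p in each direction where fewer passed. Single cells and the *Malat1* list were named after their values were seen. The summed level of the glial marker list is not reported here. Promoter windows were taken from RefSeq (GRCm38.p6). Library totals of the myotube-like cells, 254404 to 491166 UMIs, limit precision: a count of 0 allows up to 3 UMIs, which is 6.11 to 11.8 CPM.

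In the labels both genotypes have replicates 1 and 2, but nothing says that a number marks a shared animal, litter or day, so the libraries were not treated as paired.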

Additional observations from a re-analysis of the deposited data

How the results depend on the processing

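Except for the *Myh8* share, differences between genotypes in the shares were small against the spread of libraries. The sign of each difference depended on the setting, and no test was able to pass at 2 libraries per genotype. The KO minus WT share of kept cells, 0.0362 percentage points, ran from -0.0417 to 0.114 when 1 library was left out (-0.0417 without WT replicate 2 and -0.00253 without KO replicate 2). The share of myogenic cells, -0.0242 points, became 0.272 at the 0.25% limit, 0.00873 at 1%, 0.0642 without cells holding other markers and 0.0335 after thinning, and ran from -0.428 to 0.379 without 1 library (0.379 without WT replicate 1, 0.282 without KO replicate 1). The *Tnni1* share, -2.05 points, became 2.77 under the looser filter, 3.10 without cells holding other markers and 2.59 as a mean over cells, and ran from -6.35 to 2.24 without 1 library, the latter without WT replicate 2. The *Myh8* share, 15.2 points, became -2.78 and -1.47 under the settings named above and 1.55 under the looser filter, and ran from 10.3 to 20.2 without 1 library. The difference in the *Actc1* share, which the rule bounds through *Acta1*, was -0.400 points. It became 0.517 at the 1% limit, 3.57 under the looser filter, 7.40 without cells holding other markers and 0.847 as a mean over cells. Without 1 library it ran from -8.73 to 7.93 (7.93 without WT replicate 2, 2.94 without KO replicate 2). The cause was not tested.

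The edgeR calls between genotypes, 0, became 55 (26 higher, 29 lower) with no filter on low counts and ran from 0 to 12 without 1 library: 12 without KO replicate 1, 9 without WT replicate 2, 2 without WT replicate 1 and 0 without KO replicate 2. The calls for a difference between cell classes, 0, became 16 with no filter and 1 under the looser filter, and ran from 0 to 36 without 1 library: 36 without WT replicate 2, 33 without WT replicate 1, 1 without KO replicate 1 and 0 without KO replicate 2. With 1 library left in a genotype, that library is assumed to vary like the others. The other settings gave 0 calls. With the replicate number as a block there were 0 calls and 39 higher and 16 lower genes at an unadjusted p under 0.05. Same-numbered libraries had deviations that correlated at -0.428, which is 1 value, since with 2 libraries per genotype both pairs give the same. The labels name no shared source, so the libraries were not paired. A crossed replicate block, added after seeing the data, gave 27 calls.

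Log2 fold changes of named genes kept their sign in most settings. *S100a6* became 0.88 (0.87 for the difference between classes) without cells holding other markers. *Tnni1* became 0.19 in cells under 5% contractile UMIs, a setting added after seeing the data, and ran from -0.42 to 0.11 without 1 library, the latter without KO replicate 1. *Tnni2* became 0.36 in cells under 5%, and ran from -0.44 to 0.47 without 1 library (0.47 without WT replicate 1, 0.14 without KO replicate 1). *Tpm3* became 0.065 in cells under 5%. *Myh3* ran from -0.72 without KO replicate 2 to 1.53 without KO replicate 1. *Actc1* became -0.16 at the 1% limit, -0.16 without cells holding other markers and -0.037 without WT replicate 1, with at most 0.11 without another library. *Pcna*, not tested at the 1% limit or without cells holding other markers, ran from 0.82 to 2.06. In 379 other comparisons with an alternative the direction and call were as reported, and in 30 a gene gained a call. Depth limits low genes most: a gene without a UMI in a library can still be at up to 11.8 CPM.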

Other observations

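Imprinted fetal RNAs were abundant in the myotube-like cells, and about as abundant in fibroblasts. The imprinted list summed to 14072 to 15589 CPM here and 14190 to 14926 in fibroblasts. In myoblasts it summed to 12053 to 12978 CPM and in *Pax7* progenitors to 10852 to 11602. *H19*, a fetal long non-coding RNA found in 109 of 118 cells, stood at 1364, 994, 901 and 1201 CPM, above the 225 to 275 of myoblasts, and averaged 412 CPM in cells under 1% contractile UMIs, 858 at 1% to 5% and 3403 at 5% or more. *Meg3* (2673, 2299, 2635 and 4229 CPM) and *Rian* (866, 880, 753 and 1468 CPM), non-coding RNAs of 1 imprinted cluster, were also above all myoblast libraries, and 5 of the 8 imprinted genes were. *Dlk1*, *Cdkn1c* and *Peg3* overlapped. Fibroblasts had an *H19* mean of 1459 CPM.

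Of 11 measured early response and stress genes, 1 was above myoblasts, *Atf3*, and none below, against 10.9% and 18.0% over all measured genes. In cells at 5% or more contractile UMIs *Jun* averaged 298 CPM, against 1276 under 1%, and *Egr1* 247 against 1242, with 0 to 684 and 0 to 578 over the libraries of the top range. Of 9 measured progenitor and Notch genes, *Hes1* (150, 161, 135 and 110 CPM against 44.0 to 79.8) and *Heyl* were above and *Notch1* was below. Of 7 measured cell cycle exit genes, *Cdkn1a* (585, 562, 615 and 727 CPM against 279 to 405) and *Ccnd3* were above. Of 5 nuclear-retained RNAs, a list added after values were seen, 2 were above and none below. A further 51 cells that met the gene conditions had fewer than 1000 genes and 17 had too many mitochondrial UMIs, and they were not described here.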
